A study of Mus musculus with 8 samples.

Results

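Of the small leucine-rich proteoglycans, 9 genes were examined in cells from the livers of mice with and without endothelial deletion of LRP1. The members are Dcn (decorin), Bgn (biglycan), Aspn (asporin), Lum (lumican), Fmod (fibromodulin), Prelp, Omd (osteomodulin), Ogn (osteoglycin) and Podn (podocan). They were found by their gene symbols, and each symbol matched 1 of the 22520 protein-coding genes measured. The 4 WT libraries came from mice described as littermates with floxed Lrp1 alleles and without Cre (LRP1 f/f; Cdh5-CreER-/-), and the 4 LRP1 KO libraries from mice that also carried CreER (LRP1 f/f; Cdh5-CreER+/-). Both groups were C57BL/6 at postnatal day 14. The Cdh5 promoter, which is active in endothelial cells (ECs), drives CreER, so that an effect of CreER itself and an effect of losing Lrp1 cannot be told apart. The study's methods describe the cells as microvascular ECs selected with a PECAM-1 antibody on magnetic beads. No source used here says that the libraries of a group came from separate animals, so p-values measure only the spread between these libraries, which may be technical.

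Small leucine-rich proteoglycans are secreted proteins of the extracellular matrix with a core of leucine-rich repeats, and most carry chondroitin, dermatan or keratan sulfate chains. They bind collagen fibrils and set their diameter and spacing, and several hold growth factors such as TGF-β in the matrix. In the liver they are known mainly as products of stellate cells and portal fibroblasts. Of the members, decorin, biglycan and asporin belong to the first class of the family, lumican, fibromodulin, Prelp and osteomodulin to the second, osteoglycin to the third, and podocan to a later, noncanonical class. LRP1 is a large endocytic receptor of the cell surface that is known to take up decorin.

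Several members lie beside each other in the genome (GRCm38, GENCODE M21). Dcn and Lum are neighbours on chromosome 10, 47.0 kb apart, with Kera and Epyc next to Lum. Prelp and Fmod lie 116 kb apart on chromosome 1, and Aspn, Omd and Ogn follow each other on chromosome 13 with gaps of 14.9 and 15.2 kb. Bgn is on chromosome X and Podn on chromosome 4. Lrp1 itself is also on chromosome 10, 29965 kb from Lum.

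The RefSeq promoter table (GRCm38.p6) holds windows for 7 members, and Dcn and Lum have none in it. The bases before the start site are shown for 3 members that illustrate the range of response given below. Bgn is the tested member whose groups overlapped, and Ogn and Fmod are from 2 of the clusters with lower members. All 3 stretches are on the + strand and end just before the RefSeq start. Capitals mark motif matches on either strand. The GC box was searched as GGGCGG. The TATA box was searched as TATAAA and the CCAAT box by its own letters. AP-1 (TGANTCA), forkhead (TGTTTAC) and Smad (CAGACA) motifs were searched as well and had no match in these 3 windows.
Bgn, chrX:73483351-73483600: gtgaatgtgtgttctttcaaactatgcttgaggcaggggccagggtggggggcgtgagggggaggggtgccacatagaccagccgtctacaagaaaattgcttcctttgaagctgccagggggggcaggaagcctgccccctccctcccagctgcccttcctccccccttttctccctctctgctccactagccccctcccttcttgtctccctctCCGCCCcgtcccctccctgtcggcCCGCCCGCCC
Ogn, chr13:49607765-49608014: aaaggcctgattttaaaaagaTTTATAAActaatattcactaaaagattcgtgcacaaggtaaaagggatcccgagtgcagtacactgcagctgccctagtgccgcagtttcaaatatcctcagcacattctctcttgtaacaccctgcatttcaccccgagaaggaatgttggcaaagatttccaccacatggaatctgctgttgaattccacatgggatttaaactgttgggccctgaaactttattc
Fmod, chr1:134037004-134037253: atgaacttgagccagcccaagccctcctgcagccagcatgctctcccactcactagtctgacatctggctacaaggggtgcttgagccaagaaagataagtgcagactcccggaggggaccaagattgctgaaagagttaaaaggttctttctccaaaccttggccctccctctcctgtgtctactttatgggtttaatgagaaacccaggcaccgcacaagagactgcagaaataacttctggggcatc
The Bgn window of 300 bases, which runs 50 bases past the start, had a GC content of 63.7% and 3 GC boxes, at -34, -10 and -6 from the start, with an overlap between the last pair. The Ogn window was at 42.3% GC and held TATAAA at -229 and -227, on opposite strands and overlapping. Its RefSeq start lies 31 bases before the Ogn gene start in GENCODE, so that the bases just after it are in no GENCODE transcript of the gene, while the last 19 bases of the window are in one. The Fmod window was at 51.0% GC and its only match was 1 CCAAT past the start, outside the printed stretch. The median GC content of all 32851 windows was 52.7%, and 35.7% of them held GGGCGG, 13.6% held TATAAA and 37.4% held CCAAT. The AP-1, forkhead and Smad letters were in 7.81%, 3.65% and 21.0% of all windows. Among the other members' windows only Prelp and Podn held any of these, with 2 and 1 Smad matches. Windows of the other members ranged from 31.0% GC for Aspn to 77.0% for the upstream start of Podn. A match describes the letters of the window and is no evidence of binding.

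The targeted gene was checked first. Lrp1 signals were 61.6, 59.0, 56.2 and 85.1 in WT libraries 1 to 4 and 6.01, 2.16, 5.15 and 4.32 in LRP1 KO libraries 1 to 4. Every LRP1 KO library was far below every WT library, and limma gave a log2 fold change of -3.66 (adjusted p = 2.8e-06). These values are quantile-normalized signals, a scale on which a gene's value is set by its rank in its library. The unit before normalization and the depth of the libraries are unknown, and the signal is not stated to be per length, so levels were compared between libraries and not between genes. Fold changes are LRP1 KO minus WT on the log2(signal + 1) scale, which understates changes of low signals.

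Of the 9 members, 7 reached the filter, a signal of 1 or more in 4 or more libraries, and were tested among 11391 genes. Dcn, Lum, Fmod, Prelp, Ogn and Podn were lower in LRP1 KO libraries at a limma adjusted p under 0.05. No member was higher, and Bgn did not pass. Of all genes tested, 22.2% were lower and 19.0% were higher by the same rule, so that a lower call was common in this comparison. Adding a 2-fold threshold left 0 members lower and 0 higher, where 0.79% of all genes were lower and 0.869% were higher. At an unadjusted p under 0.05, 6 members were lower and 0 higher, beside 26.7% and 23.9% of all genes tested. At the adjusted p and 1.5-fold, Lum and Fmod were lower and 0 members higher, where 3.41% of all genes were lower and 2.95% higher. The median log2 fold change of the 7 tested members was -0.49, beside a median of -0.01 over all genes tested. All 7 had signals of at least 1 in all 8 libraries, so that none passed the filter through 1 group alone. Because the libraries are bulk samples, fewer cells of a type and less RNA per cell cannot be told apart.

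**Figure D1:**
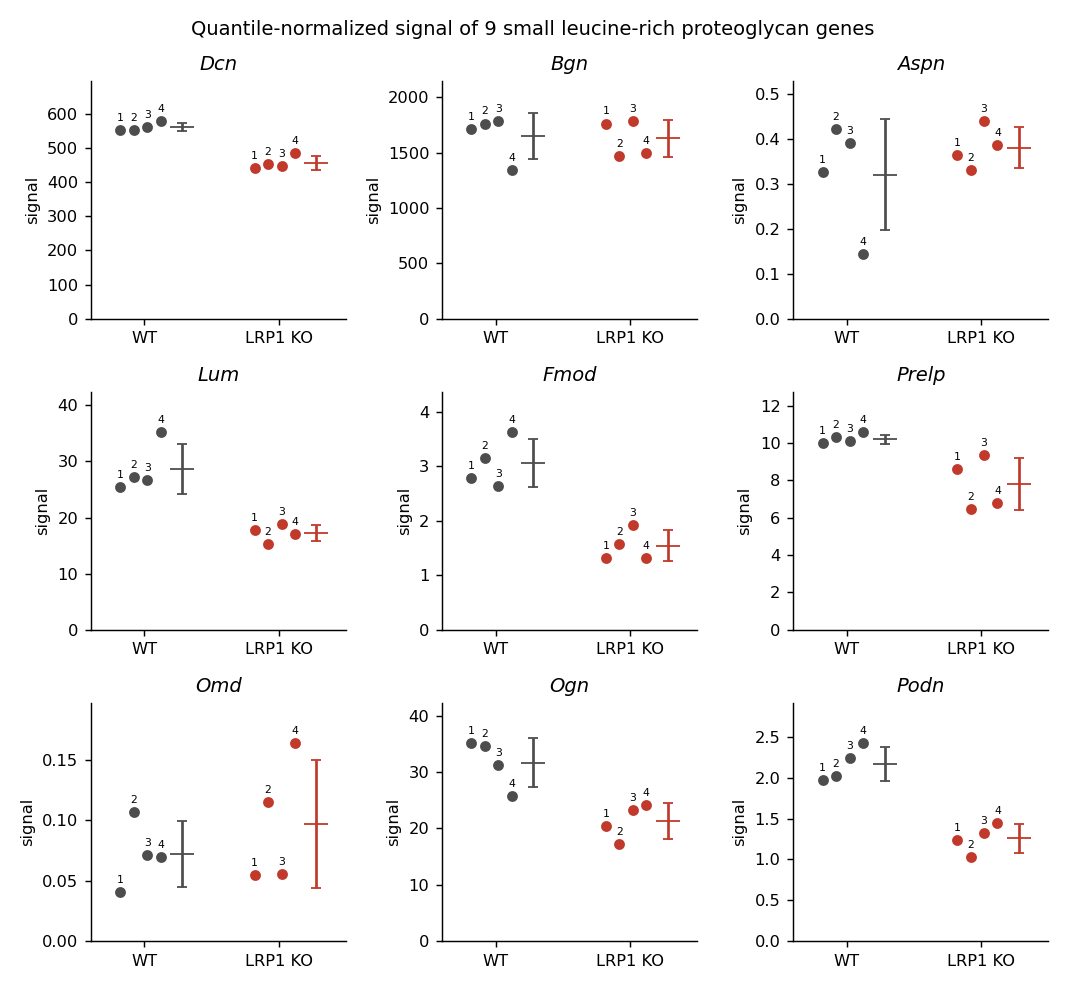
Quantile-normalized signal (vertical axis, from 0, a separate scale in each panel) of the 9 members in each WT (grey) and LRP1 KO (red) library, with replicate numbers above the points and the mean ± SD of 4 libraries beside them. The groups are apart for Dcn, Lum, Fmod, Prelp, Ogn and Podn, and overlap for Bgn, Aspn and Omd.

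Decorin, the collagen-binding proteoglycan that also holds TGF-β, kept the largest share of its WT level among the 6. Dcn (ENSMUSG00000019929, chromosome 10, 97479609 to 97518143) had signals of 554, 554, 563 and 581 in WT libraries and 441, 453, 447 and 486 in LRP1 KO libraries. The groups did not overlap, and each was narrow. The mean fell from 563 ± 12.5 (SD, n = 4) to 457 ± 20.0 (SD, n = 4), or 81.1% of the level in WT. By limma this was a log2 fold change of -0.30 (SE 0.04, 95% interval -0.40 to -0.21, adjusted p = 0.00054).

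Biglycan is the nearest relative of decorin and binds many of the same partners. Bgn (ENSMUSG00000031375, chromosome X, 73483602 to 73495933) had signals of 1710, 1763, 1789 and 1346 in WT libraries and 1763, 1473, 1789 and 1496 in LRP1 KO libraries. The groups covered the same range, and WT library 4 was the lowest of all 8. On the log2 scale its gap to the next WT library was 0.841 of the WT range, past Dixon's 95% critical value for 4 samples. Without it the log2 fold change was -0.11. The means were 1652 ± 207 (SD, n = 4) and 1630 ± 169 (SD, n = 4). Its log2 fold change was -0.02 (SE 0.10, limma adjusted p = 0.91), and its 95% interval of -0.24 to 0.21 holds changes of either sign. Bgn ranked between 19 and 34 among the genes of its library, where 1 place in rank shifts the value in large steps. In 2 pairs of libraries it had the same value, which is a property of the normalization.

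Asporin, the third member of the first class, was below the filter. Aspn (ENSMUSG00000021388, chromosome 13, 49544443 to 49567565) had signals of 0.325, 0.421, 0.391 and 0.144 in WT libraries and 0.363, 0.331, 0.440 and 0.386 in LRP1 KO libraries. The groups overlapped at these low signals. In a fit of the 17959 genes above 0 in any library, its log2 fold change was 0.07 (95% interval -0.09 to 0.22, limma adjusted p = 0.49).

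Lumican, a keratan sulfate proteoglycan that regulates fibril spacing, had the largest log2 fold change of the members with a pseudocount of 1. Lum (ENSMUSG00000036446, chromosome 10, 97565128 to 97572703) had signals of 25.4, 27.3, 26.7 and 35.3 in WT libraries and 17.7, 15.3, 18.8 and 17.1 in LRP1 KO libraries. WT library 4 was highest, and all LRP1 KO libraries were below all WT libraries. The mean fell from 28.7 ± 4.49 (SD, n = 4) to 17.2 ± 1.45 (SD, n = 4), or 60.1% of the level in WT. This is a log2 fold change of -0.69 (SE 0.10, 95% interval -0.92 to -0.47, limma adjusted p = 0.00057).

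Fibromodulin shares its binding site on collagen with lumican. Fmod (ENSMUSG00000041559, chromosome 1, 134037254 to 134048277) had signals of 2.78, 3.15, 2.64 and 3.63 in WT libraries and 1.32, 1.58, 1.92 and 1.32 in LRP1 KO libraries. The groups were apart, although the signals were low. The mean of 1.54 ± 0.284 (SD, n = 4) in LRP1 KO libraries was 50.4% of the WT mean of 3.05 ± 0.440 (SD, n = 4), the lowest share of the 9 members. On the log2 scale this was -0.68 (95% interval -0.90 to -0.45, limma adjusted p = 0.00067). For this low gene the pseudocount set the size of the change, which was -0.95 with a pseudocount of 0.1 and -0.30 with a pseudocount of 5.

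Prelp encodes a proteoglycan that links basement membranes to the collagen beneath them. Prelp (ENSMUSG00000041577, chromosome 1, 133910304 to 133921414) had signals of 10.0, 10.3, 10.1 and 10.6 in WT libraries and 8.62, 6.47, 9.36 and 6.80 in LRP1 KO libraries. The WT libraries lay close together and the LRP1 KO libraries were spread, with libraries 2 and 4 lowest. The mean fell from 10.2 ± 0.250 (SD, n = 4) to 7.81 ± 1.40 (SD, n = 4). Its log2 fold change was -0.36 (95% interval -0.59 to -0.14, limma adjusted p = 0.017). Osteomodulin, a keratan sulfate proteoglycan of mineralized tissue, was below the filter with signals between 0.0405 and 0.164 in all 8 libraries. Omd (ENSMUSG00000048368, chromosome 13, 49582462 to 49592822) overlapped between groups, and the fit without a filter gave it a log2 fold change of 0.03 (adjusted p = 0.54 by limma).

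Osteoglycin, also called mimecan, is known as a regulator of collagen fibrils. Ogn (ENSMUSG00000021390, chromosome 13, 49608046 to 49624501) had signals of 35.2, 34.6, 31.2 and 25.8 in WT libraries and 20.5, 17.2, 23.3 and 24.2 in LRP1 KO libraries. The groups did not overlap, but WT library 4 and LRP1 KO library 4 were separated by only 1.59. The mean fell from 31.7 ± 4.33 (SD, n = 4) to 21.3 ± 3.16 (SD, n = 4), or 67.2% of the level in WT. In limma the log2 fold change was -0.55 (SE 0.12, 95% interval -0.82 to -0.29, limma adjusted p = 0.0053). Of the 3 members clustered on chromosome 13, Ogn alone passed the filter.

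Podocan is a collagen-binding member known to restrain smooth muscle cell growth. Podn (ENSMUSG00000028600, chromosome 4, 108014791 to 108096445) had signals of 1.98, 2.02, 2.25 and 2.43 in WT libraries and 1.24, 1.03, 1.32 and 1.45 in LRP1 KO libraries. The groups were apart at low signals. The mean fell from 2.17 ± 0.208 (SD, n = 4) to 1.26 ± 0.176 (SD, n = 4), or 58.2% of the level in WT. On the log2 scale the fall was -0.49 (SE 0.08, 95% interval -0.66 to -0.31, limma adjusted p = 0.001), and it was -0.74 with a pseudocount of 0.1 and -0.20 with a pseudocount of 5.

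**Figure D2:**
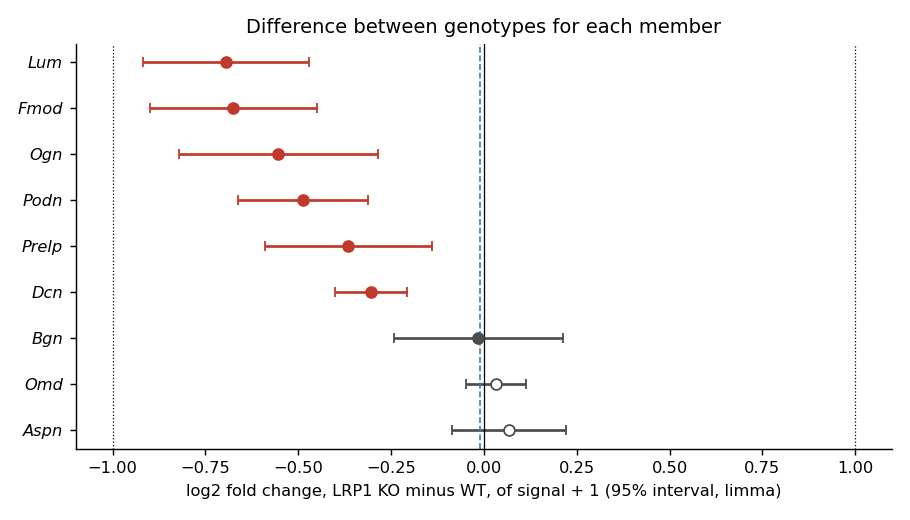
Log2 fold change of signal + 1, LRP1 KO minus WT, of each member (horizontal axis, points) with its 95% interval from limma (bars). Red points passed an adjusted p of 0.05, open points were below the filter and come from the fit without it, dotted lines mark 2-fold and the dashed line marks the median of all genes tested, -0.01. The 6 red intervals are wholly below 0 and inside 2-fold, and the Bgn interval covers 0.

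In each of the 6 lower members all 4 LRP1 KO libraries were below all 4 WT libraries, as for 22.5% of all genes tested. The exact two-sided permutation test gave p = 0.029 for each, which is the smallest p that 4 libraries against 4 allow, and p = 0.97 for Bgn. WT library 4 was the WT library farthest from its group's median for 61.7% of all genes tested, and LRP1 KO library 2 was the farthest in its group for 37.2%. Among the 9 members, WT library 4 was the highest of its group in 5 and the lowest in 3. LRP1 KO library 2 was the lowest of its group in 6. Without WT library 4, without LRP1 KO library 2, or without any other library in turn, 6 members passed an adjusted p of 0.05, and their log2 fold changes ranged from -0.75 to -0.29. The weakest of these was Prelp without LRP1 KO library 4, with a limma adjusted p just under the threshold (0.05 when rounded). The Bgn value ranged from -0.11 to 0.03 over the same fits, so that its sign rested on single libraries.

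Within each library, Bgn was then set against each of the 6 lower members, a comparison chosen after their values were seen. The ratio of Bgn to Lum was 67.3, 64.6, 67.1 and 38.1 in WT libraries and 99.9, 96.2, 95.1 and 87.2 in LRP1 KO libraries. It was higher in every LRP1 KO library than in every WT library, by 0.71 on the log2 scale. The ratio to Fmod was higher by 0.98, to Podn by 0.77, to Ogn by 0.56 and to Prelp by 0.39, again with no overlap. Each of these 5 ratios had an exact two-sided permutation p = 0.029, or 0.034 after Benjamini-Hochberg adjustment over 6 ratios. The 6 members were taken because they were called lower, and Bgn was not called, so that higher ratios were largely set in advance. These p-values repeat the differences of the members and are no further support for them. The ratio of Bgn to Dcn was 3.09, 3.18, 3.18 and 2.32 in WT libraries and 4.00, 3.25, 4.00 and 3.08 in LRP1 KO libraries. These overlapped, and the difference of 0.29 did not pass (exact permutation p = 0.14, adjusted p = 0.14). Ratios with Fmod and Podn carry the uncertainty of low signals, and with 1 added to each signal the Podn difference was 0.47.

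**Figure D3:**
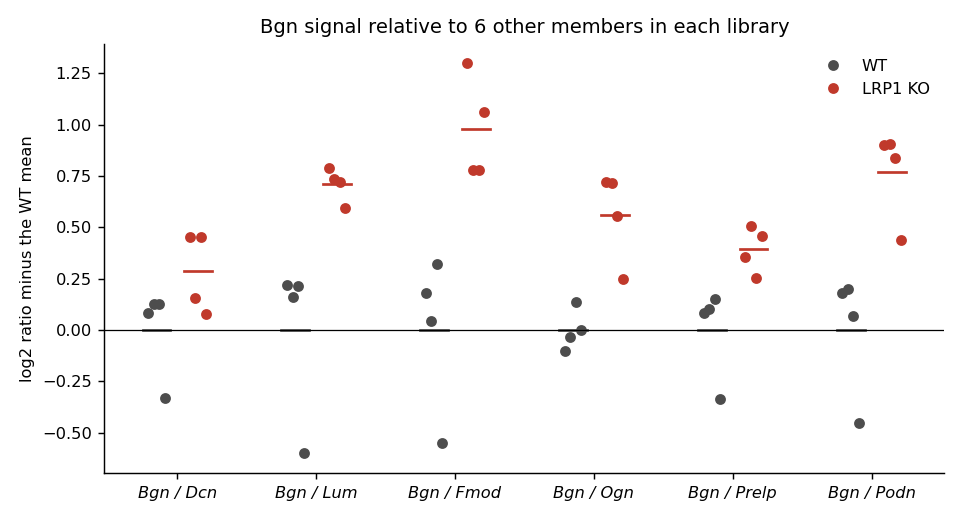
Log2 ratio of Bgn signal to the signal of each lower member in each library (vertical axis), minus the mean of the 4 WT libraries, with WT in grey, LRP1 KO in red and short lines at the group means. LRP1 KO libraries sit above all WT libraries for 5 ratios and overlap WT for Bgn / Dcn; the lowest WT point is WT library 4 in all but Bgn / Ogn.

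Among the 6 lower members themselves, 15 pairs were compared in the same way, also after their values were seen. The ratio of Dcn to Lum was higher in LRP1 KO libraries by 0.42, of Dcn to Fmod by 0.69 and of Dcn to Podn by 0.48 on the log2 scale. The groups did not overlap in these 3 ratios (exact permutation p = 0.029, adjusted p = 0.086 over 15 pairs). The Lum to Prelp and Fmod to Prelp ratios were lower by 0.32 and 0.59 with the same p-values. No pair passed the adjusted threshold, and a p that misses it does not show that the members changed alike.

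For each tested member the genes with the most similar pattern were found by the root mean square difference of log2(signal + 1), centred on each gene's mean, over the 8 libraries. The nearest gene to Dcn was Aldh7a1, an aldehyde dehydrogenase, with a difference of 0.02. Lum was nearest to Col8a2, a collagen chain, with 0.06, and then to Vstm4, also with 0.06. Fmod was nearest to Igf2, a fetal growth factor that itself fell from 14.3 to 8.26, with 0.06. Prelp was nearest to Vdr, the vitamin D receptor, with 0.04, and Podn to Sptssa with 0.05. Ogn was nearest to Zfp36l1 with 0.08 and Bgn to Med14 with 0.05. No member was among the 2 nearest genes of another.

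Of 9 other small leucine-rich repeat proteins, which were not among the members examined, 2 were tested, and 1 was higher and 1 lower. Tsku (tsukushi, a secreted inhibitor of BMP and Wnt signalling) rose from 27.9 ± 1.06 to 38.6 ± 1.57 (SD, n = 4 each; log2 fold change 0.45, limma adjusted p = 7.7e-05). Chadl (chondroadherin-like) fell from 1.80 ± 0.474 to 1.08 ± 0.371 (SD, n = 4 each; log2 fold change -0.43, limma adjusted p = 0.038). The Chadl call was lost, with 0 genes of the list lower, without the filter, with the replicate number as a block, and without WT library 1, WT library 4, LRP1 KO library 3 or LRP1 KO library 4. Chadl was not tested at a minimum mean signal of 5. The cluster neighbours of the members were low in all 8 libraries. Kera was at 0 in every library, and the highest signals were 0.0841 for Epyc, 0.712 for Optc and 0.206 for Ecm2.

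Genes that build the sugar chains of these proteoglycans moved in both directions, and 0 passed both the adjusted p and 2-fold. For the linker and the chondroitin or dermatan sulfate chains, 16 of 22 genes were tested, of which 5 were higher and 1 was lower. The higher count was 3 with the replicate number as a block. The lower count was 0 with the block and without WT library 2 or any 1 of the LRP1 KO libraries, and 2 without WT library 3 or 4. The smallest adjusted p-values were those of Chpf2, Chpf and Xylt2, enzymes of chain polymerization and chain initiation, which had log2 increases of 0.26, 0.25 and 0.20 (limma adjusted p = 0.0042, 0.0062 and 0.017). For keratan sulfate, 4 of 8 genes were tested. B4galt4, a galactosyltransferase, fell from 54.5 ± 1.16 to 37.0 ± 2.74 (SD, n = 4 each; log2 fold change -0.55, limma adjusted p = 6.6e-05). B3gnt2, which adds the alternating sugar, rose by 0.34 (limma adjusted p = 0.039), a call lost without WT library 3 or any 1 of the LRP1 KO libraries. Without WT library 4, 2 genes of this list were lower in place of 1.

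The growth factors and receptors that these proteoglycans bind included 18 tested genes of 20, with 9 higher and 4 lower. With 1 library left out, the higher count ranged from 6 to 9 and the lower count stayed at 4. Lrp1 is 1 of the 4 lower genes. At the adjusted p and 2-fold, Cd44 was higher by 1.28 (limma adjusted p = 2.2e-05). By that rule Lrp1 and Cd14 were lower, with Cd14 at -1.48 (limma adjusted p = 0.00036). Ctgf, a matricellular factor that binds decorin, rose from 217 ± 13.1 to 373 ± 4.15 (SD, n = 4 each; log2 fold change 0.78, limma adjusted p = 3e-06). Bmp4, a morphogen bound by biglycan, fell from 38.9 ± 1.91 to 23.8 ± 1.15 (SD, n = 4 each; log2 fold change -0.69, limma adjusted p = 1e-05). The median of the list was 0.16.

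Proteases that cut these proteoglycans, with their inhibitors, had 14 tested genes of 17, of which 7 were higher and 2 lower, with a median log2 fold change of 0.33. Without WT library 3 or LRP1 KO library 4, 1 was lower. Adamts5, a proteoglycan-cleaving metalloproteinase, rose from 6.22 ± 1.23 to 13.7 ± 0.564 (SD, n = 4 each; log2 fold change 1.04, limma adjusted p = 0.00011). Mmp13, a collagenase, rose by 0.86 (limma adjusted p = 0.00021) and Timp2, an inhibitor of these enzymes, by 0.48 (limma adjusted p = 0.00063). The list therefore held higher genes of opposite function.

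Among the fibrillar and associated collagens, which are the main ligands of the members, 12 of 13 were tested, 3 were higher and 3 lower, with a median of 0.03. The lower count was 0 without WT library 1, WT library 3 or LRP1 KO library 1, 2 or 4, and it was 1 without WT library 2, with the replicate number as a block or without the filter. The higher count was 5 without LRP1 KO library 2. Col12a1 and Col11a1, a fibril-associated and a minor fibrillar collagen, had log2 increases of 0.67 and 0.64 (limma adjusted p = 2e-04 and 3e-04). Col5a1, which starts fibrils, rose by 0.36 (limma adjusted p = 0.0054). Of the large proteoglycans and hyaluronan enzymes, 2 of 10 were tested. Vcan (versican) rose from 6.24 ± 0.265 to 11.3 ± 0.526 (SD, n = 4 each; log2 fold change 0.76, limma adjusted p = 7e-06), and Hspg2 (perlecan) had a value of -0.01 (limma adjusted p = 0.92). Over all 7 lists, 27 of 68 tested genes were higher and 12 were lower, beside 19.0% and 22.2% of all genes tested.

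**Figure D4:**
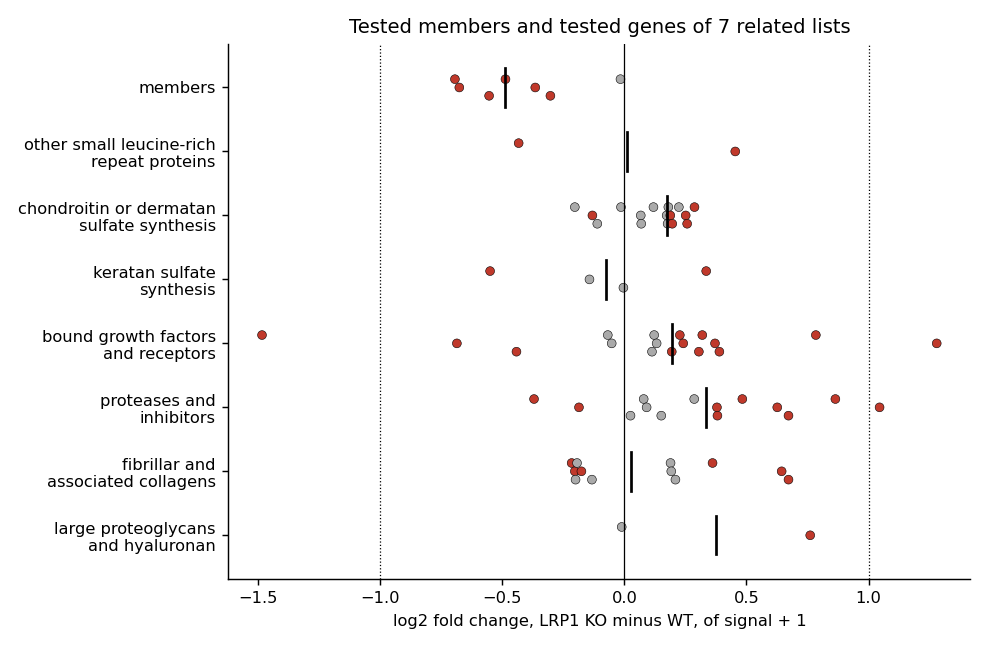
Log2 fold change of signal + 1, LRP1 KO minus WT (horizontal axis), of the 7 tested members and of the tested genes of 7 related lists, with Lrp1 left out. Red points passed an adjusted p of 0.05, black bars are medians and dotted lines mark 2-fold; the members' median is -0.49, and the list of proteases and inhibitors has its median at 0.33.

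Markers of the cell types that the preparation could hold were summed in each library. The labels call the cells liver microvesicular cells. Of 9 endothelial markers, Erg and Tek stayed below 1 in all 8 libraries, and the summed signal ranged from 22.4 to 24.6 in WT and from 22.4 to 36.3 in LRP1 KO libraries. Of the 6 tested, 5 did not pass, and Cdh5 alone was higher, by 0.68 (limma adjusted p = 0.020), with overlapping groups. Of 8 liver sinusoidal EC markers, Dnase1l3 was below 1 throughout, and the sums were 7.55 to 10.9 and 8.09 to 29.1. Of the 4 tested, 3 did not pass and Oit3 was higher by 1.11 (limma adjusted p = 0.00022). Oit3 signals were 0.483 to 0.729 in WT libraries, so that it reached the filter only through the LRP1 KO libraries. Of 10 hepatic stellate cell markers, Rgs5, Ngfr, Lrat and Reln were below 1 in all libraries. Of the 5 tested, 2 were higher and 0 lower, with sums of 233 to 248 and 235 to 289.

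Fibroblast markers, which mark cells known to make these proteoglycans, moved in both directions. Of 8 tested genes of 13, 4 were lower and 3 were higher, and Pi16 and Clec3b were below 1 in all libraries. Thy1, a surface protein of fibroblasts, had a log2 decrease, with a value of -0.72 (limma adjusted p = 2.1e-05). Fbln1 was at -0.87 (limma adjusted p = 0.00025), and Fbln2 rose by 0.71 (limma adjusted p = 9e-06). Led by Fbln2, the summed signal was 1056 to 1150 in WT and 1337 to 1492 in LRP1 KO libraries. Mesothelial markers (2353 to 2838 and 3027 to 3349) and smooth muscle markers (1554 to 1608 and 1893 to 1979) were also higher in sum without overlap. The mesothelial sum was led by Msln and Upk1b, while the median log2 fold change of its tested genes was -0.08. Of the mesothelial markers 2 of 9 were higher and 1 was lower, none of them below 1 throughout, and of the smooth muscle markers 5 of 7 were higher. Among those 5, Myh11 was below 1 in every WT library and reached the filter only through the LRP1 KO libraries.

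Skeletal muscle and hepatocyte markers were lower, as the 6 members were. All 5 tested skeletal muscle markers of the 8 measured were lower, with sums of 33.2 to 56.5 in WT and 6.07 to 7.97 in LRP1 KO libraries and with Myh3, Myh8 and Ckm below 1 throughout. Of these 5, Atp2a1 and Tnnc2 were below 1 in every LRP1 KO library and reached the filter only through the WT libraries. Their lower direction was thus tied to the filter. All 5 tested hepatocyte markers of 9 were lower, with sums of 64.5 to 91.9 and 22.2 to 29.0. Hnf4a, Cyp2e1 and Apoc3 were below 1 throughout. Apoa2 was below 1 in LRP1 KO libraries 1, 3 and 4 and reached the filter through the WT libraries. The lower direction of Apoa2 was thus tied to the filter. Macrophage and Kupffer cell markers summed to between 112 and 219 in WT libraries and between 52.1 and 720 in LRP1 KO libraries. Timd4 and Clec4f were below 1 throughout. Of the 8 tested, Csf1r alone passed, higher by 0.91 (limma adjusted p = 0.030), with overlapping groups. Bone and cartilage markers were included because several members are named for these tissues. Of 14, 10 were below 1 in all libraries, and Dmp1 and Ibsp were at 0. Of the 3 tested, Runx2 was higher by 0.54 (limma adjusted p = 0.00072). Scx was lower, at -0.40 (limma adjusted p = 0.017), and Alpl at -0.30 (limma adjusted p = 0.039). Scx overlapped between groups, and Alpl was below 1 in LRP1 KO libraries 1 to 3. Sums of cholangiocyte markers (301 to 356 and 233 to 696) and leukocyte markers (1.14 to 2.18 and 1.54 to 5.84) overlapped between groups. Erythroid sums (24.6 to 46.2 and 14.6 to 24.7) overlapped as well. Single genes of these lists did pass. Krt7 was lower, at -0.32 (limma adjusted p = 0.00044), with groups apart. S100a8 was higher by 0.66 (limma adjusted p = 0.041) and Alas2 was at -0.40 (limma adjusted p = 0.043), both with overlapping groups. S100a8 was below 1 in WT libraries 1 and 3. The part of these cell types in the lower signals of the members was not tested.

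**Figure D5:**
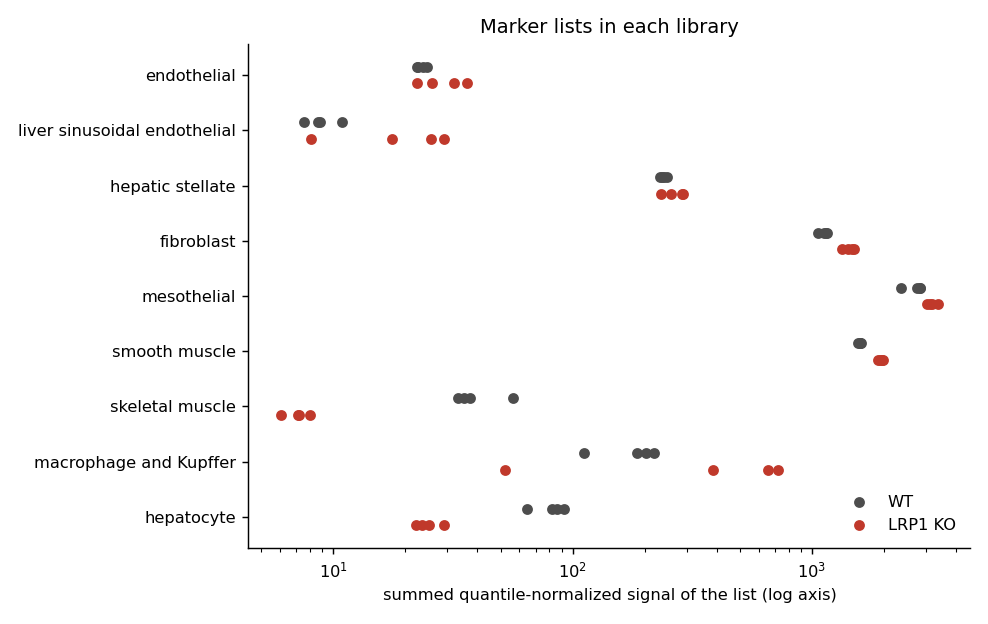
Summed quantile-normalized signal of 9 marker lists (horizontal log axis) in each WT (grey) and LRP1 KO (red) library. Skeletal muscle and hepatocyte sums are lower in all LRP1 KO libraries, fibroblast, mesothelial and smooth muscle sums are higher in all of them, and the macrophage sum spreads from 52.1 to 720 within LRP1 KO.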

How the data were processed

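Libraries of 4 WT and 4 LRP1 KO samples were grouped by their labels. The authors deposited 1 table of quantile-normalized signal for 22520 coding genes, with 1 column per library. The submitters' processing notes name TopHat2, Cufflinks and mm10, whereas the study's methods name STAR, featureCounts and edgeR. Neither describes this table or the unit that was normalized. Library totals of 484445 to 485947 were fixed by the normalization, so that depth is unknown, a global shift would be removed, and precision was judged from the spread of 4 libraries.

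Signals were converted to log2(signal + 1) and fitted with limma 3.58.1 (R 4.3.3) in a model of genotype alone with trend estimation. Benjamini-Hochberg adjustment covered the 11391 genes that reached a signal of 1 in 4 or more libraries. Members below the filter were fitted without it, over 17959 genes. Calls used an adjusted p under 0.05, with and without 2-fold. The fit was tested on simulated data. Exact permutation tests were two-sided. The members and lists were chosen with earlier results of these data known. All members were named, with up to 3 genes of a list by smallest adjusted p, up to 3 marker genes by highest signal, and the 2 nearest genes of each tested member, not all of which are printed. Marker genes named as below 1 or at 0 are those whose signal stayed there in all libraries. Exceptions are Oit3, Myh11, Atp2a1 and Tnnc2, which are named as below 1 in 1 group. Apoa2, Alpl and S100a8 are named as below 1 in some libraries of 1 group. Cd44 and Cd14 are named because they passed 2-fold.

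Each result was recomputed with pseudocounts of 0.1 or 5, without the filter, with a minimum mean of 5, with array weights, without the trend, with robust moderation, after centring on a mean trimmed by 30% at each end, with other thresholds, as a ratio of arithmetic means, with the replicate number as a block, and without each library in turn. Acta1, Adgre1, Hbb-bs and Hbb-bt were not analysed here. Python 3.11.15 and matplotlib 3.10.9 were used for figures.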

Additional observations from a re-analysis of the deposited data

Results flagged for a closer look

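On the log2 scale, 60 groups of 4 libraries were examined for the members, Lrp1 and the lists by Dixon's test, and 6 were past the 95% critical value for 4 samples, where chance alone gives about 1 in 20, or 3. Among the members this was so for Bgn alone, which was lowest in WT library 4, with a gap to the next library of 0.841 of the WT range. On the signal scale that gap was 0.822, just short of the critical value. The mean log2 signal of the keratan sulfate synthesis list was lowest in WT library 4, with a gap to the next library of 0.843 of the group's range. WT library 4 was also the lowest WT library for the growth factors and receptors (0.96) and the highest for smooth muscle markers (0.84). LRP1 KO library 4 was the lowest of its group for smooth muscle markers (0.948). WT library 2 was the highest WT library for erythroid markers (0.967).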

How the results depend on the processing

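For 35 results, 555 values were computed under alternatives, of which 510 were labelled as the same, 40 as moved and 5 as reversed. Fold changes were the same if they kept their sign and their side of the adjusted p threshold. Ratios of arithmetic means of single members were judged by sign alone. Medians and Bgn ratios were the same within the spread between libraries. Counts of genes were the same up to a ratio of 1.5, a loose rule under which 29 called genes against 39 are the same. The reversals were all of the Bgn log2 fold change, which was 0.004 without WT replicate 1, 0.019 without WT replicate 2, 0.026 without WT replicate 3, 0.031 without LRP1 KO replicate 2 and 0.024 without LRP1 KO replicate 4. Its range with 1 library left out was -0.11 to 0.03, with the lowest value without WT replicate 4. The number of members lower was 2 at a 1.5-fold threshold, Lum and Fmod, beside 3.41% of all genes tested, against 0 at 2-fold. At the adjusted p alone, 6 members were lower in every fit but the one with a minimum mean signal of 5, which left 4 because Fmod and Podn were not tested in it. Leaving out each library gave a median over all 9 members, which was -0.36 with all libraries, of -0.45 to -0.30. It gave 29 to 41 called genes of the related lists, against 39. Most of the moved values were counts of at most 5 genes in a list, among them the calls of Chadl and B3gnt2 and the lower collagens, which could fall to 0. With the replicate number as a block, 6 members were lower (largest adjusted p 0.026, Prelp) and 33 genes of the lists were called. Same-numbered libraries had correlations of deviations from the group means of -0.09, -0.13, 0.18 and 0.04, and no library correlated best with the library of its own number. Whether same-numbered libraries share more than a number is unknown. With 3 libraries against 4, an exact permutation p cannot be below 0.057. Depth is unknown, and Fmod and Podn, at signals of 1 to 4, are the tested members whose fold depends most on the pseudocount.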
